A study of Mus musculus with 14 samples.

Results

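The genes described here encode lysosomal proteins and the transcription factors that control them, 44 genes in all. They were taken from a fixed list of names and not by a cut on measured values, but the list was chosen with earlier results of these data known. It holds 13 hydrolases that cut glycans, 7 lipid hydrolases, activators and sterol exporters and 3 soluble proteins of protein turnover. It also holds 6 membrane proteins, 12 subunits and accessory proteins of the vacuolar proton pump (V-ATPase) and 3 transcription factors of the MiT/TFE family. Cathepsins were not part of the list. All 44 were found among the 20343 genes that could be tested, and all 44 were well above background on every one of the 14 arrays. RNA came from peritoneal cells of C57BL/6 mice that had been sorted as positive for CD11b and F4/80, the surface markers of peritoneal macrophages. All injections were intraperitoneal. The PBS group (3 arrays) received the vehicle and stands for macrophages resident in the cavity. The titles of its samples call it untreated. The IL-4c group (4 arrays) received IL-4 complex, which is 5 µg of interleukin-4 bound to 25 µg of the antibody 11B11. The Thio group (3 arrays) received 2 ml of 4% thioglycollate, a broth whose irritant action recruits monocytes from the blood, which become elicited macrophages. The Thio+IL-4c group (4 arrays) received both agents. The time between injection and sorting, the age and the sex of the mice are not given in the sources used here. Whether each replicate was a mouse of its own is not stated, and the p-values therefore reflect only how far these samples spread.

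Lysosomes are acidic organelles in which macrophages break down engulfed cells, microbes, lipoproteins and their own worn organelles. The V-ATPase acidifies the lumen by coupling ATP hydrolysis in its cytosolic V1 sector to proton transport through its membrane V0 sector, and the hydrolases work best at that low pH. TFEB, TFE3 and MITF are related helix-loop-helix factors that bind E-box elements with the core CACGTG in the promoters of many lysosomal genes. They are held in the cytosol while the kinase mTORC1 is active on the lysosomal surface, so the level of their mRNA is only part of their control.

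Promoter windows from 250 bases before to 50 bases after the annotated start were held for 38 of the 44 genes in the RefSeq table of mouse assembly GRCm38.p6. The letters TCACGTG, searched on both strands, stood in the windows of 9 of these 38 genes (23.7%), against 4.29% of all 27025 genes with windows. The core CACGTG stood in the same 9 genes, against 8.09% of all genes. The related letters TCATGTG stood in 6 of the 38 (15.8%), against 4.31% of all genes. The 9 genes were Atp6v1a, Atp6v0b, Atp6v0d1, Mcoln1, Lamp1, Naglu, Gaa, Gla and Glb1. Of these windows, 4 are printed 5′ to 3′ on the strand of the gene, so that the E-box can be seen in place. They were chosen for the size of the difference between Thio and PBS among called genes. The capitals mark TCACGTG or its reverse complement, which overlap in TCACGTGA. The windows lie at chr16:44139210-44139509 (minus strand) for Atp6v1a, chr8:3500269-3500568 (plus strand) for Mcoln1, chr9:114400828-114401127 (plus strand) for Glb1 and chr11:101069844-101070143 (plus strand) for Naglu.
Atp6v1a: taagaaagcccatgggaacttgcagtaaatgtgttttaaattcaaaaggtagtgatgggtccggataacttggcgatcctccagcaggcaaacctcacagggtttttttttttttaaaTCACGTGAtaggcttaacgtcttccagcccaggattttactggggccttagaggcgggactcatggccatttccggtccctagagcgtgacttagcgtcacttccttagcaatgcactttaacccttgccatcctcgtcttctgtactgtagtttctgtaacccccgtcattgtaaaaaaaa
Mcoln1: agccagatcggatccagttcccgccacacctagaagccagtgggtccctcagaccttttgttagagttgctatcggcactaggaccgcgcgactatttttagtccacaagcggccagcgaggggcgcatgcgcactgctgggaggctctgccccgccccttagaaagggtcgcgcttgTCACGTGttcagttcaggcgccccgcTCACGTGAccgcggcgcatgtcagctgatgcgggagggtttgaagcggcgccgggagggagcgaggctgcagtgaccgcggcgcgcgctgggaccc
Glb1: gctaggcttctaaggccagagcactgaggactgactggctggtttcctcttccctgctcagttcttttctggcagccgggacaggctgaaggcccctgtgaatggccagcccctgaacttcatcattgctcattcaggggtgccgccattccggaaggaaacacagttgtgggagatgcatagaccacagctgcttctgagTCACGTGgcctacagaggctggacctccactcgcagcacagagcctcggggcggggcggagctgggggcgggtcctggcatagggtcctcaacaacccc
Naglu: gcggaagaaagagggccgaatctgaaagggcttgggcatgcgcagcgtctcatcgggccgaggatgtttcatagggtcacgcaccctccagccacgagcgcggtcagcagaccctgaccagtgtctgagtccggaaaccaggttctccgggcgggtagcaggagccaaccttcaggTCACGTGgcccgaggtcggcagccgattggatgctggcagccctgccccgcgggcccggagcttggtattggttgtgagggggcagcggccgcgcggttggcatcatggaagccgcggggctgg
Mcoln1 holds 2 such cores, 71 and 45 bases before the start, while the other windows hold 1, at 131 bases in Atp6v1a, 48 in Glb1 and 73 in Naglu. Of the printed genes, Atp6v1a, Mcoln1 and Naglu were higher in Thio than in PBS and Glb1 was lower. The median log2 difference between Thio and PBS was 0.55 over the 9 genes with TCACGTG and 0.54 over the 29 without it. For Thio+IL-4c versus Thio these medians were -1.41 and -1.16. A match of letters is a description and does not show that a factor binds there.

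Each level is the log2 processed signal after subtraction of the log2 value at the 75th percentile of its array, so a level of 0 equals that percentile and 1 unit is 2-fold. Levels of different genes come from different probes and are not set against each other. The 75th percentile was 1275 to 1819 intensity units in PBS, 3059 to 3883 in IL-4c, 2294 to 3578 in Thio and 2044 to 2549 in Thio+IL-4c, and 79.2% to 95.7% of probes were well above background. Array brightness and IL-4c therefore moved together in resident cells, and its part in those differences was not tested. All PBS and IL-4c arrays and Thio replicate 1 lay on slide 1, and Thio replicates 2 and 3 and all Thio+IL-4c arrays lay on slide 2. Thio replicate 1 stood apart: over all genes it correlated with the other Thio arrays at r of 0.848 to 0.865 and with the PBS arrays at 0.917 to 0.931, while other arrays of a group correlated at 0.956 to 0.987. It was above the mean of Thio replicates 2 and 3 for 43 of the 44 genes, by a median of 0.37. Its difference from PBS had the sign of the other Thio arrays for 40 of the 44. Of the sort and lineage markers of macrophages, 7 of 8 could be tested. Each of these 7 was well above background on at least 1 array of every group. In a bulk sample, fewer cells of a type and less RNA per cell cannot be told apart.

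Counts and medians of the 44 genes are given beside those of all genes tested (limma, Benjamini-Hochberg adjusted p under 0.05 over all 20343 genes). Genes that passed are said to be called. In Thio versus PBS, 26 of the 44 were higher and 9 lower, where 20.2% of all genes tested were higher and 24.2% lower, and the median log2 difference was 0.90 against -0.09 over all genes. In Thio+IL-4c versus Thio, 40 were lower and 0 higher, where 23.1% of all genes were lower and 16.2% higher, and the median was -1.20 against 0.03. Of the 40, 28 were at least 2-fold lower. In IL-4c versus PBS, 10 were higher and 15 lower, where 16.9% of all genes were higher and 15.3% lower, with a median of -0.13 against -0.01. In Thio+IL-4c versus IL-4c, 7 were higher and 22 lower, where 27.9% of all genes were higher and 42.2% lower, and that share of lower genes was close to the background. By group mean, 31 genes were highest in Thio and 26 were lowest in Thio+IL-4c. Between its highest and its lowest group mean a gene spanned a median of 1.62 log2 units, from 0.43 for Lamp2 to 6.87 for Cd63.

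**Figure D1:**
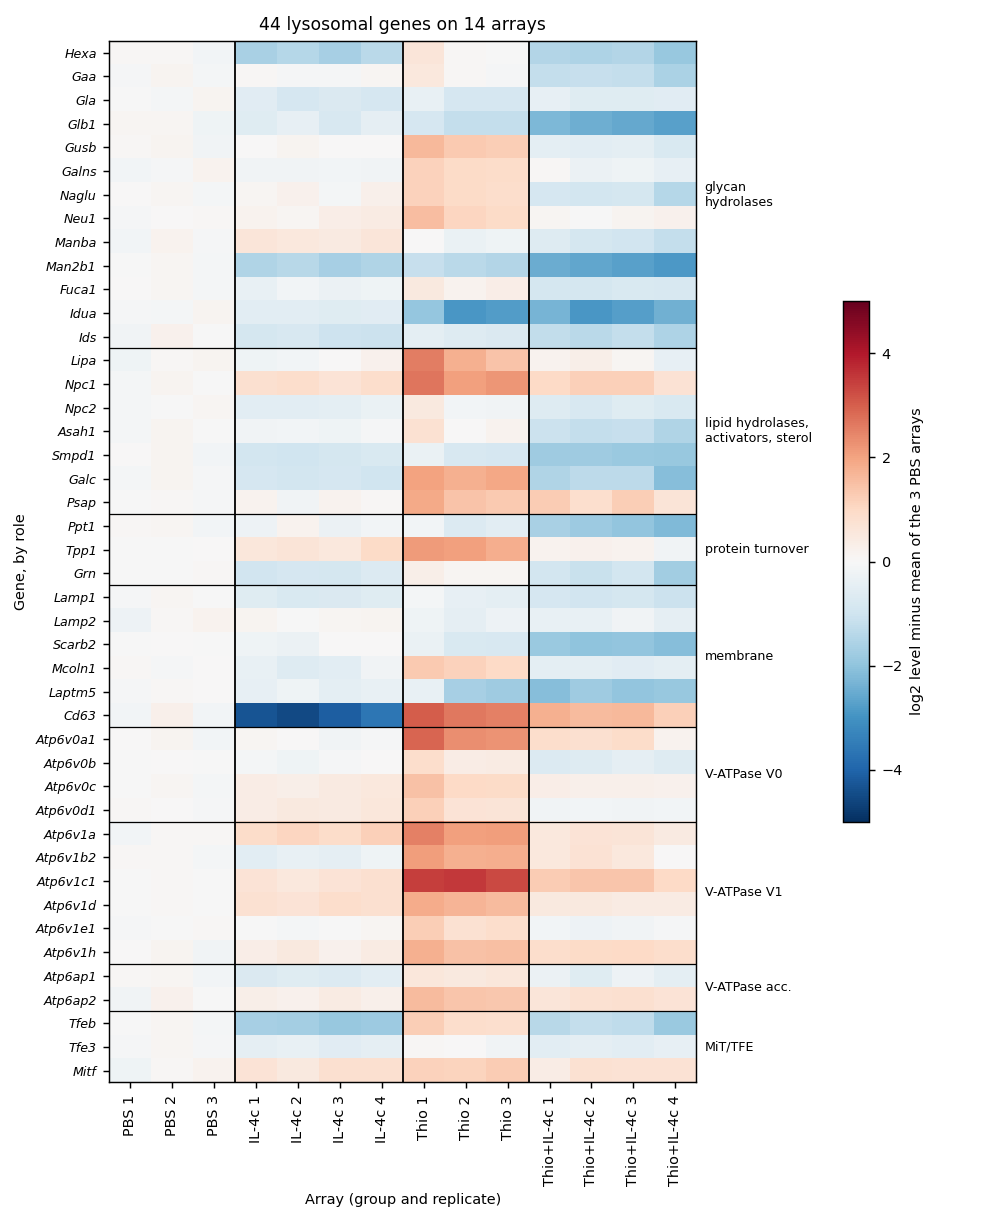
Colour gives the log2 level of each of the 44 genes (vertical axis, by role) on each of the 14 arrays (horizontal axis) minus the mean of the 3 PBS arrays, red for higher and blue for lower. The V-ATPase block is red in the 3 Thio columns, where all 12 of its genes were called higher than in PBS by their brightest probes. It pales in the Thio+IL-4c columns, where all 12 were called lower than in Thio.

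**Figure D2:**
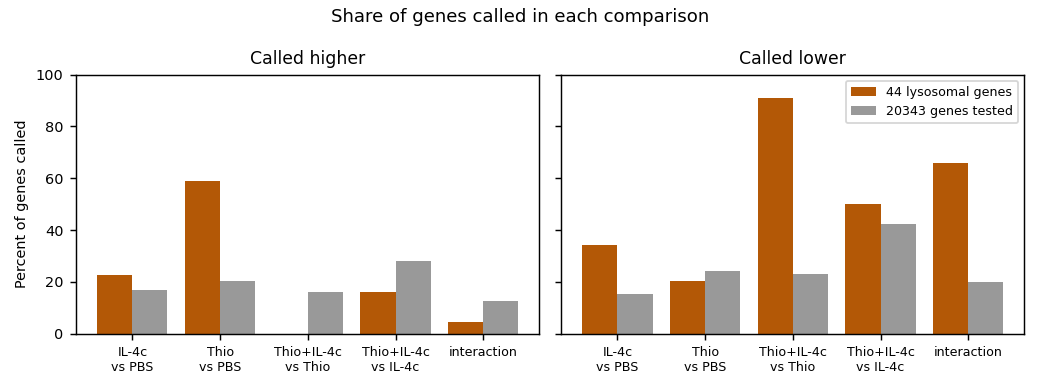
Bars give the percent of the 44 genes (orange) and of the 20343 genes tested (grey) that were called higher (left) or lower (right) in each comparison by limma. The tallest bar is that of lower genes in Thio+IL-4c versus Thio, at 90.9% of the 44 genes against 23.1% of all genes.

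The slide and Thio replicate 1 bear on these counts. Within slide 1, where Thio replicate 1 is the only Thio array, 30 genes were higher than in PBS and 3 lower, against 18.1% and 15.6% of all genes. Without Thio replicate 1, 26 were higher and 11 lower, against 30.1% and 38.1% of all genes, with a median of 0.75. Within slide 2, with Thio replicates 2 and 3, 39 genes were lower in Thio+IL-4c than in Thio and 0 higher, against 20.1% and 21.2% of all genes. No slide holds both IL-4c and Thio+IL-4c arrays. With the slide as a block, 10 genes were higher and 9 lower in Thio+IL-4c than in IL-4c, against 12.2% and 14.5% of all genes. That block rests on Thio replicate 1 set against Thio replicates 2 and 3 and cannot separate the slide from that array. In IL-4c versus PBS, all arrays lay on slide 1, and a fit of that slide alone gave 10 higher and 19 lower, against 23.5% and 23.8% of all genes. For the same comparison the values of the authors' deposited log2 table gave 13 higher (29.5%) and 9 lower (20.5%) with a median of 0.19, against 23.1% and 16.0% of all genes. In the fit of all arrays, 34.1% of the 44 were lower in IL-4c than in PBS, against 15.3% of all genes. The share of lower genes was also above that of all genes within slide 1, and less so in the deposited table.

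By their brightest probes, all 12 genes of the proton pump were higher in Thio than in PBS, with a median log2 difference of 1.51. All 12 were lower in Thio+IL-4c than in Thio, with a median of -1.15. The other probe of Atp6ap1 gave 0.30 in Thio versus PBS, which was not called. These comparisons share the Thio arrays. Over all genes, 20.2% were higher in Thio than in PBS and 23.1% were lower in Thio+IL-4c than in Thio. In resident cells 6 of the 12 pump genes rose with IL-4c and 1 fell, with a median of 0.33. There 16.9% of all genes were higher and 15.3% lower. Atp6v1c1 encodes the C subunit, which joins the stator of the V1 sector and comes off when the pump is taken apart. Its level was 1.19, 1.28 and 1.18 on the PBS arrays, 1.92, 1.75, 1.90 and 2.01 on the IL-4c arrays, 4.68, 4.75 and 4.50 on the Thio arrays and 2.50, 2.60, 2.59 and 2.22 on the Thio+IL-4c arrays. All Thio arrays stood above all others, and the Thio+IL-4c arrays lay between them and the IL-4c arrays with no overlap. Atp6v1c1 rose by 3.43 ± 0.12 (SE, adjusted p = 3.0e-09) with thioglycollate, a 10.8-fold difference, and by 0.68 ± 0.12 (SE, adjusted p = 6.4e-04) with IL-4c in resident cells. It was lower in Thio+IL-4c than in Thio, by a log2 difference of -2.17 ± 0.12 (SE, adjusted p = 7.4e-08), and higher than in IL-4c by 0.58 ± 0.11 (SE, adjusted p = 5.2e-04). Atp6v1a encodes the catalytic A subunit that splits ATP. Its level was 3.09, 3.28 and 3.27 on the PBS arrays, 4.14, 4.29, 4.14 and 4.41 on the IL-4c arrays, 5.74, 5.27 and 5.29 on the Thio arrays and 3.74, 3.89, 3.87 and 3.66 on the Thio+IL-4c arrays. No groups overlapped, and the order from low to high was PBS, Thio+IL-4c, IL-4c and Thio. Atp6v1a had the largest rise of the 44 genes with IL-4c in resident cells, 1.03 ± 0.13 (SE, adjusted p = 7.2e-05), while IL-4c in elicited cells went with a difference of -1.64 ± 0.13 (SE, adjusted p = 1.5e-06). It was 2.22 ± 0.14 (SE, adjusted p = 2.2e-07) higher in Thio than in PBS. The lower level in Thio+IL-4c than in IL-4c, -0.46 ± 0.12 (SE, adjusted p = 0.0055), was not called with the slide as a block.

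Other V1 subunits were read in the same way. Atp6v1d, the D subunit of the central rotor, stood at 3.25 ± 0.04 in PBS, 4.02 ± 0.08 in IL-4c, 4.97 ± 0.14 in Thio and 3.70 ± 0.03 in Thio+IL-4c (mean ± SD of 3 PBS, 4 IL-4c, 3 Thio and 4 Thio+IL-4c arrays, as in all such sentences). It rose by 0.78 with IL-4c and by 1.72 with thioglycollate and was lower by a log2 difference of -1.27 in Thio+IL-4c than in Thio. Atp6v1b2 is the B subunit isoform found in most tissues and sits beside the catalytic sites. Its level was 1.02, 1.02 and 0.85 on the PBS arrays, 0.44, 0.61, 0.52 and 0.76 on the IL-4c arrays, 3.06, 2.72 and 2.79 on the Thio arrays and 1.51, 1.68, 1.51 and 0.99 on the Thio+IL-4c arrays. The IL-4c arrays were the lowest, and the Thio+IL-4c arrays, though below all Thio arrays, stayed above all IL-4c arrays. Atp6v1b2 was 1.89 ± 0.17 (SE, adjusted p = 4.3e-06) higher in Thio than in PBS, -1.44 ± 0.16 (SE, adjusted p = 2.1e-05) in Thio+IL-4c versus Thio, and -0.38 ± 0.16 (SE, adjusted p = 0.096) in IL-4c versus PBS, which did not pass but was called within slide 1 (adjusted p = 0.018 by limma). Atp6v1h, a regulatory subunit that links ATP hydrolysis to proton transport, stood at 0.62 ± 0.17 in PBS, 0.99 ± 0.11 in IL-4c, 2.21 ± 0.16 in Thio and 1.55 ± 0.06 in Thio+IL-4c. It rose in IL-4c versus PBS (0.37), Thio versus PBS (1.58) and Thio+IL-4c versus IL-4c (0.55) and fell in Thio+IL-4c versus Thio (-0.66). Its rise in IL-4c versus PBS was lost in 4 of the fits that left out 1 PBS or IL-4c array. The E subunit gene Atp6v1e1, a stalk component, had log2 differences of 0.96 in Thio versus PBS and -1.12 in Thio+IL-4c versus Thio, both called.

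In the membrane sector, Atp6v0a1 encodes an isoform of the a subunit, which carries the path for protons. Its level was 2.45, 2.56 and 2.30 on the PBS arrays, 2.52, 2.47, 2.25 and 2.38 on the IL-4c arrays, 5.35, 4.76 and 4.67 on the Thio arrays and 3.31, 3.25, 3.35 and 2.61 on the Thio+IL-4c arrays. PBS and IL-4c arrays overlapped, all Thio arrays stood above the rest, and Thio+IL-4c replicate 4 was the lowest of its group. Atp6v0a1 was 5.62-fold higher in Thio than in PBS, a log2 difference of 2.49 ± 0.22 (SE, adjusted p = 3.3e-06), and -1.80 ± 0.20 (SE, adjusted p = 2.4e-05) in Thio+IL-4c versus Thio. Atp6v0d1, the d subunit that couples the sectors, stood at 3.26 ± 0.07 in PBS, 3.73 ± 0.07 in IL-4c, 4.10 ± 0.31 in Thio and 3.10 ± 0.03 in Thio+IL-4c. Its rise with IL-4c in resident cells (0.47) contrasted with a log2 difference of -1.0 in elicited cells, and the Thio+IL-4c mean was -0.63 relative to IL-4c, which was -0.09 and not called with the slide as a block. Atp6v0c, the proteolipid of the rotating ring, and Atp6v0b, a related ring subunit, were higher in Thio by 1.13 and 0.55 and lower with IL-4c in elicited cells, with differences of -0.86 and -1.17.

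The accessory proteins aid assembly of the pump and differed from each other in resident cells. Atp6ap1 stood at 3.35, 3.36 and 3.12 on the PBS arrays, 2.56, 2.65, 2.60 and 2.76 on the IL-4c arrays, 3.83, 3.77 and 3.83 on the Thio arrays and 2.97, 2.65, 3.01 and 2.78 on the Thio+IL-4c arrays. The IL-4c arrays were below all PBS arrays, and the Thio arrays were above both. In the fit of all arrays, Atp6ap1 was the pump gene called lower in IL-4c than in PBS, -0.63 ± 0.11 (SE, adjusted p = 7.2e-04), and its call was lost in the authors' deposited table. Atp6ap2, also known as the prorenin receptor, stood at 2.66 ± 0.19 in PBS, 2.96 ± 0.10 in IL-4c, 4.09 ± 0.12 in Thio and 3.38 ± 0.09 in Thio+IL-4c. It rose by 1.43 ± 0.12 (SE, adjusted p = 2.1e-06) with thioglycollate and was -0.71 ± 0.11 (SE, adjusted p = 2.9e-04) in Thio+IL-4c versus Thio.

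**Figure D3:**
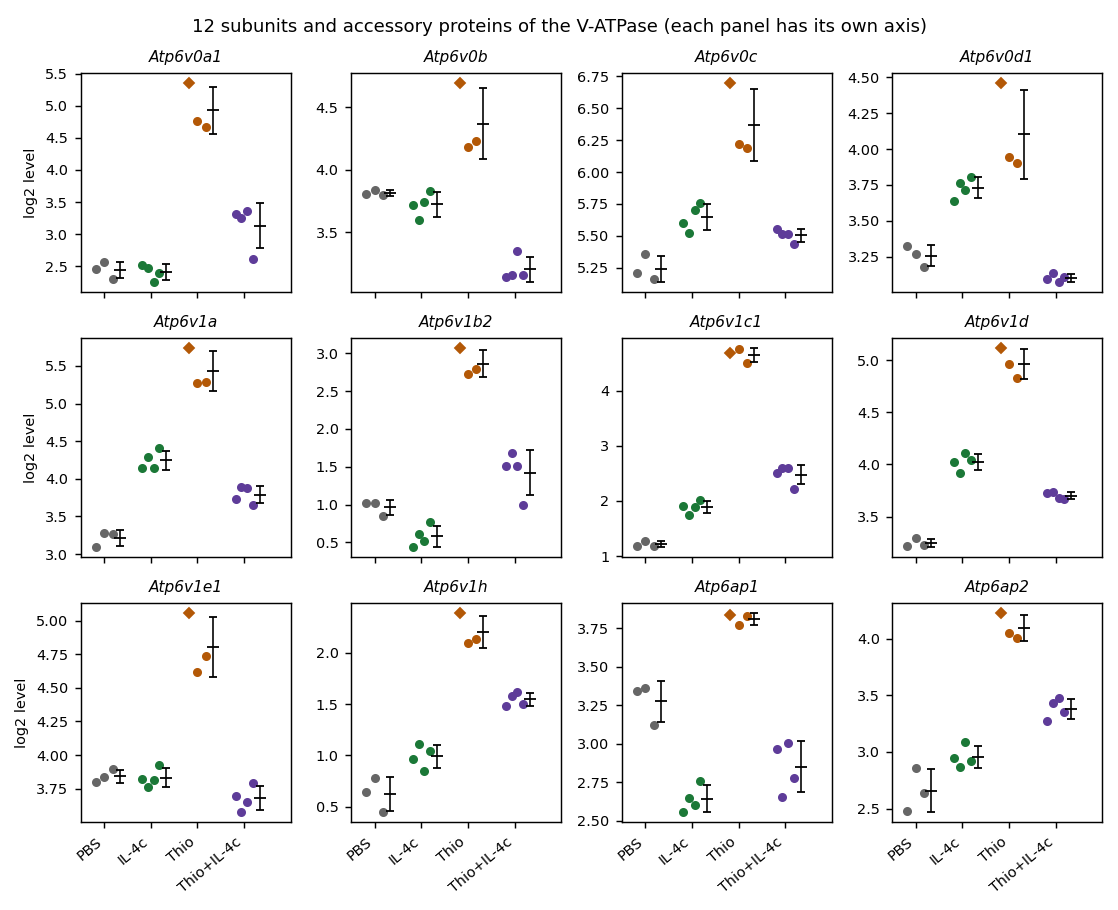
Points give the log2 level of 12 V-ATPase genes on each array by group, with an axis for each gene and the mean and SD beside the points; the diamond is Thio replicate 1. In every panel the 3 Thio points lie above the Thio+IL-4c points, as for Atp6v1c1 at 4.64 ± 0.13 against 2.48 ± 0.18.

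The 3 transcription factors had different patterns. Tfeb, the factor most studied as a regulator of lysosome number, was at -0.47, -0.36 and -0.56 on the PBS arrays, -2.11, -2.17, -2.37 and -2.26 on the IL-4c arrays, 0.78, 0.42 and 0.38 on the Thio arrays and -1.84, -1.66, -1.74 and -2.33 on the Thio+IL-4c arrays. All arrays given IL-4c were below all arrays without it, and all Thio arrays were above all PBS arrays. Tfeb fell with IL-4c in resident cells by a log2 difference of -1.76 ± 0.16 (SE, adjusted p = 5.9e-06), 3.4-fold, and in elicited cells by -2.42 ± 0.16 (SE, adjusted p = 4.1e-07), 5.34-fold. It rose by 0.99 ± 0.17 (SE, adjusted p = 8.1e-04) with thioglycollate. The levels after IL-4c in resident and elicited cells overlapped and differed by 0.33 ± 0.15 (SE, adjusted p = 0.064). Tfe3 was at 3.40, 3.58 and 3.43 on the PBS arrays, 3.04, 3.08, 2.89 and 3.02 on the IL-4c arrays, 3.53, 3.47 and 3.30 on the Thio arrays and 2.96, 3.04, 2.93 and 3.08 on the Thio+IL-4c arrays. It was lower with IL-4c by similar amounts, -0.46 ± 0.09 (SE, adjusted p = 0.0021) in resident and -0.44 ± 0.09 (SE, adjusted p = 0.0028) in elicited cells, with the interaction at 0.03 ± 0.13 (SE, adjusted p = 0.88). Thioglycollate alone gave -0.03 ± 0.10 (SE, adjusted p = 0.79). The other Tfe3 probe gave -0.22 and -0.70 with IL-4c, of which the second was called. Mitf, which also drives melanocyte and osteoclast genes, was at 1.80, 2.08 and 2.19 on the PBS arrays, 2.72, 2.51, 2.82 and 2.81 on the IL-4c arrays, 3.18, 3.13 and 3.29 on the Thio arrays and 2.41, 2.78, 2.74 and 2.76 on the Thio+IL-4c arrays. All PBS arrays were the lowest, and the Thio arrays were the highest. Mitf rose by 0.69 ± 0.13 (SE, adjusted p = 0.0015) with IL-4c and by 1.17 ± 0.14 (SE, adjusted p = 4.7e-05) with thioglycollate. Its other probe gave 0.19 with IL-4c, which was not called, and 1.31 with thioglycollate, which was. For Thio+IL-4c versus Thio it was -0.53 ± 0.13 (SE, adjusted p = 0.0075), while its other probe gave 0.31, which was not called. Averaging the probes gave 0.70 for Thio+IL-4c versus IL-4c, against -0.05 with the brightest probe.

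Among the membrane proteins, Cd63 had the largest span. It encodes a tetraspanin of late endosomes, lysosomes and secretory granules. Its level was 3.88, 4.27 and 3.85 on the PBS arrays, -0.33, -0.50, -0.10 and 0.40 on the IL-4c arrays, 7.03, 6.65 and 6.52 on the Thio arrays and 5.78, 5.58, 5.63 and 5.21 on the Thio+IL-4c arrays. The groups did not overlap, and the IL-4c arrays lay over 3 log2 units below the lowest PBS array. Cd63 fell by 17.6-fold with IL-4c in resident cells, a log2 difference of -4.13 ± 0.22 (SE, adjusted p = 1.0e-07). It rose with thioglycollate by 2.73 ± 0.24 (SE, adjusted p = 3.4e-06) and was -1.18 ± 0.22 (SE, adjusted p = 0.0012) in Thio+IL-4c versus Thio. Cd63 was 5.68 ± 0.21 (SE, adjusted p = 2.7e-09) higher in Thio+IL-4c than in IL-4c, 51.4-fold, and its interaction was positive at 2.95 ± 0.32 (SE, adjusted p = 3.3e-05).

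Mcoln1 encodes a calcium channel of the lysosomal membrane, TRPML1. Its level was 2.48, 2.38 and 2.44 on the PBS arrays, 2.06, 1.79, 1.90 and 2.26 on the IL-4c arrays, 3.75, 3.57 and 3.42 on the Thio arrays and 1.94, 1.95, 1.87 and 1.95 on the Thio+IL-4c arrays. Only the Thio arrays stood high, and the groups given IL-4c overlapped each other. Mcoln1 differed by 1.15 ± 0.13 (SE, adjusted p = 2.4e-05) in Thio versus PBS and by -1.65 ± 0.12 (SE, adjusted p = 7.1e-07) in Thio+IL-4c versus Thio. Scarb2, also called LIMP-2, carries glucocerebrosidase to lysosomes. It was at 3.02, 3.03 and 3.0 on the PBS arrays, 2.79, 2.71, 3.04 and 3.03 on the IL-4c arrays, 2.67, 2.24 and 2.22 on the Thio arrays and 1.15, 1.02, 1.03 and 0.88 on the Thio+IL-4c arrays. PBS and IL-4c overlapped, the Thio arrays were lower, and the Thio+IL-4c arrays were over 1 log2 unit below every other array. Scarb2 was -1.36 ± 0.13 (SE, adjusted p = 7.0e-06) in Thio+IL-4c versus Thio and -1.87 ± 0.12 (SE, adjusted p = 2.2e-07) in Thio+IL-4c versus IL-4c. Its lower level in Thio than in PBS, -0.64, was -0.35 and not called within slide 1. Laptm5, a membrane protein of blood cells that takes part in receptor turnover, was at 5.57, 5.68 and 5.62 on the PBS arrays, 5.20, 5.39, 5.15 and 5.26 on the IL-4c arrays, 5.27, 3.95 and 3.85 on the Thio arrays and 3.51, 3.83, 3.66 and 3.75 on the Thio+IL-4c arrays. Thio replicate 1 lay near the IL-4c arrays, and Thio replicates 2 and 3 lay near the Thio+IL-4c arrays. Its difference between Thio and PBS, -1.27 ± 0.29 (SE, adjusted p = 0.0047), was -0.35 within slide 1 and -1.72 without Thio replicate 1.

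Lamp1 and Lamp2 are the heavily glycosylated proteins that line the inner face of the lysosomal membrane. Lamp1 was at 7.27, 7.42 and 7.33 on the PBS arrays, 6.74, 6.59, 6.62 and 6.75 on the IL-4c arrays, 7.26, 6.93 and 6.84 on the Thio arrays and 6.51, 6.38, 6.46 and 6.25 on the Thio+IL-4c arrays. The PBS arrays were the highest and the Thio+IL-4c arrays the lowest, and Thio replicate 1 was close to the PBS arrays. Lamp1 fell with IL-4c by a log2 difference of -0.66 ± 0.11 (SE, adjusted p = 7.4e-04) in resident and -0.61 ± 0.11 (SE, adjusted p = 0.0011) in elicited cells. The difference between Thio and PBS, -0.33 ± 0.12 (SE, adjusted p = 0.047), was 0.45 and called with quantile normalization and was not called in most fits that left out 1 array. Quantile normalization also ended the call in IL-4c versus PBS. Lamp2 was at 4.61, 4.94 and 5.05 on the PBS arrays, 5.0, 4.86, 4.98 and 5.01 on the IL-4c arrays, 4.65, 4.41 and 4.60 on the Thio arrays and 4.51, 4.51, 4.68 and 4.41 on the Thio+IL-4c arrays, and its groups overlapped in 3 of the 4 pairwise comparisons. It was called only in Thio+IL-4c versus IL-4c, -0.43 ± 0.11 (SE, adjusted p = 0.0043), whose arrays lay on different slides, and that call was lost with the slide as a block (-0.29) and with quantile normalization. Its other probe gave -0.66 in IL-4c versus PBS and -0.87 in Thio+IL-4c versus Thio, both called, so the probes did not settle whether Lamp2 changed with IL-4c.

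**Figure D4:**
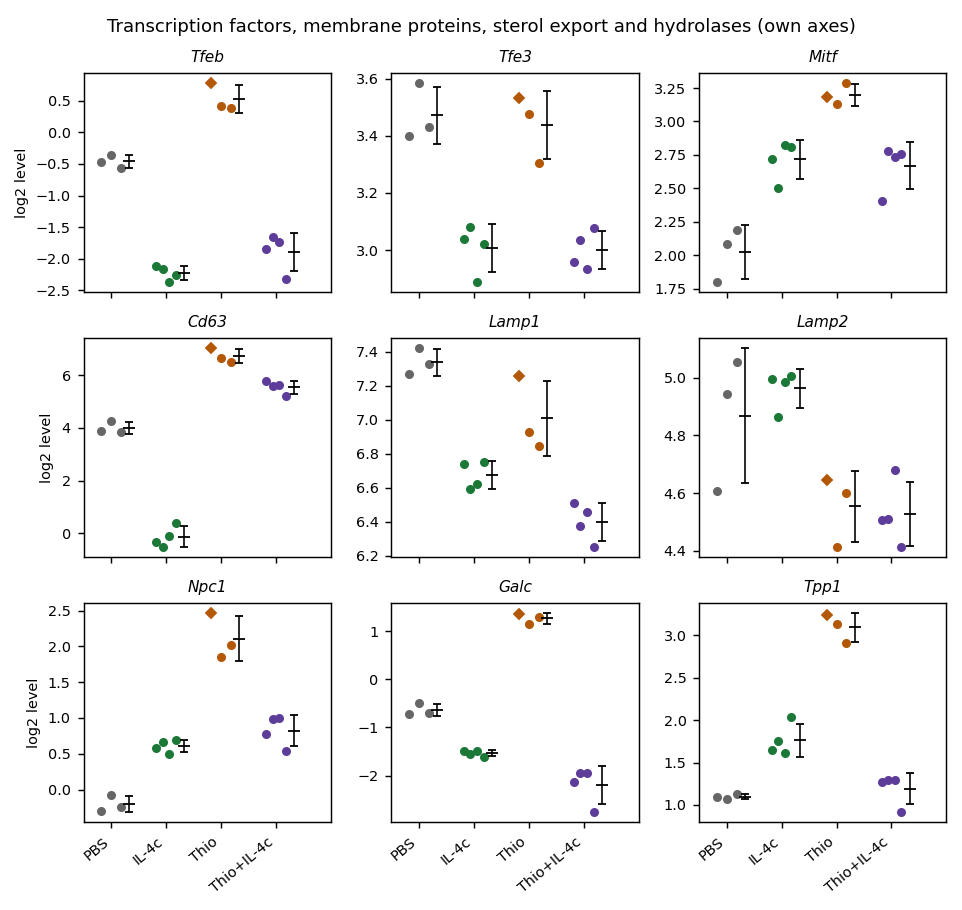
Points give the log2 level on each array, by group, of 3 transcription factors, 3 membrane proteins, Npc1, Galc and Tpp1, each on its own axis with mean and SD; the diamond is Thio replicate 1. Tfeb was low in both groups given IL-4c (-2.23 ± 0.12 and -1.89 ± 0.30), whereas Cd63 was low in IL-4c alone (-0.13 ± 0.39).

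Of the 13 glycan hydrolases, 5 were higher, 5 lower and 3 not called in Thio versus PBS, where 20.2% of all genes were higher and 24.2% lower. All of the 13 but Gla and Idua were lower in Thio+IL-4c than in Thio, where 23.1% of all genes were lower. Within slide 1, 7 were higher than in PBS, with Hexa (0.60) and Gaa (0.51) added, and 3 were lower, Glb1, Idua and Man2b1, as Gla and Ids were no longer called. These counts use the brightest probe of each gene, and for Idua and Gaa another probe disagreed. The largest rise was that of Gusb, the β-glucuronidase of glycosaminoglycan breakdown. Its level was 4.72, 4.77 and 4.46 on the PBS arrays, 4.66, 4.80, 4.67 and 4.68 on the IL-4c arrays, 6.26, 5.95 and 5.88 on the Thio arrays and 4.15, 4.12, 4.16 and 3.89 on the Thio+IL-4c arrays. The PBS and IL-4c arrays overlapped, the Thio arrays stood over 1 log2 unit above them, and the Thio+IL-4c arrays lay below all others. Gusb rose by 1.38 ± 0.13 (SE, adjusted p = 6.5e-06) with thioglycollate and was -1.95 ± 0.12 (SE, adjusted p = 2.5e-07) in Thio+IL-4c versus Thio. Naglu, which removes N-acetylglucosamine from heparan sulfate, was at 2.97, 3.06 and 2.86 on the PBS arrays, 3.04, 3.17, 2.88 and 3.21 on the IL-4c arrays, 4.12, 3.92 and 3.84 on the Thio arrays and 2.11, 2.04, 2.08 and 1.54 on the Thio+IL-4c arrays. It had the same order of groups and the largest fall of the glycan hydrolases in elicited cells, -2.02 ± 0.15 (SE, adjusted p = 8.4e-07). Its rise in Thio versus PBS was 0.99 ± 0.16 (SE, adjusted p = 4.3e-04), and IL-4c in resident cells gave 0.11 ± 0.15 (SE, adjusted p = 0.66). Galns, a sulfatase, and Neu1, the lysosomal sialidase, also rose in Thio versus PBS, by 1.0 and 1.20, and were -1.21 and -1.10 in Thio+IL-4c versus Thio. Fuca1, the α-fucosidase, rose by only 0.32, a call kept in 19 of 25 alternatives, and was -1.16 in Thio+IL-4c versus Thio.

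A second set of glycan hydrolases was highest in PBS. Man2b1, the lysosomal α-mannosidase, was at 6.81, 6.91 and 6.72 on the PBS arrays, 5.30, 5.45, 5.15 and 5.31 on the IL-4c arrays, 5.65, 5.46 and 5.34 on the Thio arrays and 4.33, 4.20, 4.12 and 3.94 on the Thio+IL-4c arrays. No array of the other groups reached the PBS arrays, and the Thio+IL-4c arrays were the lowest. Man2b1 fell with IL-4c in resident cells by a log2 difference of -1.51 ± 0.12 (SE, adjusted p = 1.8e-06) and in elicited cells by -1.34 ± 0.12 (SE, adjusted p = 3.8e-06). Its interaction was 0.18 ± 0.17 (SE, adjusted p = 0.44), and its difference in Thio versus PBS was -1.33 ± 0.13 (SE, adjusted p = 7.4e-06). Glb1, the β-galactosidase used as a marker of ageing cells, was at 4.53, 4.53 and 4.23 on the PBS arrays, 3.82, 4.03, 3.63 and 3.98 on the IL-4c arrays, 3.58, 3.26 and 3.23 on the Thio arrays and 2.18, 1.98, 1.89 and 1.71 on the Thio+IL-4c arrays. The 4 groups did not overlap, in the order PBS, IL-4c, Thio and Thio+IL-4c from high to low. Glb1 was -1.08 ± 0.16 (SE, adjusted p = 2.4e-04) in Thio versus PBS and -1.41 ± 0.15 (SE, adjusted p = 1.4e-05) in Thio+IL-4c versus Thio. Gla, the α-galactosidase, was highest in PBS at 7.02 ± 0.11 in PBS, 6.26 ± 0.13 in IL-4c, 6.34 ± 0.28 in Thio and 6.47 ± 0.09 in Thio+IL-4c. It fell by a log2 difference of -0.75 ± 0.13 (SE, adjusted p = 8.6e-04) with IL-4c in resident cells, while in elicited cells the difference was 0.14 ± 0.13 (SE, adjusted p = 0.42). Its lower level in Thio than in PBS (-0.68) turned to 0.11 with quantile normalization and was not called there or within slide 1. Ids, a sulfatase of heparan and dermatan sulfate, stood at 0.94 ± 0.21 in PBS, -0.01 ± 0.14 in IL-4c, 0.32 ± 0.12 in Thio and -0.39 ± 0.16 in Thio+IL-4c and fell with IL-4c in resident (-0.95) and elicited cells (-0.71).

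Hexa, the α subunit of β-hexosaminidase, was at 6.26, 6.26 and 6.05 on the PBS arrays, 4.56, 4.76, 4.52 and 4.83 on the IL-4c arrays, 6.79, 6.24 and 6.16 on the Thio arrays and 4.71, 4.64, 4.71 and 4.31 on the Thio+IL-4c arrays. PBS and Thio overlapped, and so did the groups given IL-4c. Hexa fell with IL-4c by a log2 difference of -1.52 ± 0.16 (SE, adjusted p = 2.1e-05) in resident and -1.80 ± 0.16 (SE, adjusted p = 4.4e-06) in elicited cells, and the interaction was -0.28 ± 0.23 (SE, adjusted p = 0.38). Manba, the β-mannosidase, was the only glycan hydrolase called higher in IL-4c than in PBS. It was at 1.96, 2.27 and 2.04 on the PBS arrays, 2.69, 2.60, 2.54 and 2.71 on the IL-4c arrays, 2.12, 1.76 and 1.89 on the Thio arrays and 1.44, 1.21, 1.15 and 0.92 on the Thio+IL-4c arrays. The IL-4c arrays were the highest and the Thio+IL-4c arrays the lowest. Manba rose by 0.54 ± 0.14 (SE, adjusted p = 0.0087) in resident cells and was -0.75 ± 0.14 (SE, adjusted p = 9.8e-04) in elicited cells. For Idua, the α-iduronidase, the probes disagreed. The brighter one was at 4.26, 4.21 and 4.45 on the PBS arrays, 3.76, 3.77, 3.71 and 3.74 on the IL-4c arrays, 2.36, 1.41 and 1.50 on the Thio arrays and 1.96, 1.40, 1.55 and 1.90 on the Thio+IL-4c arrays. PBS and IL-4c were high and the groups given thioglycollate low, with a difference of -2.55 ± 0.23 (SE, adjusted p = 4.3e-06) between Thio and PBS. The other probe gave 0.82 for that comparison, also called, and -2.05 for Thio+IL-4c versus Thio, where the brighter gave -0.05. Gaa, the acid α-glucosidase of glycogen breakdown, likewise had probes of opposite sign in Thio+IL-4c versus IL-4c, -1.28 and 1.39, both called. For Thio+IL-4c versus Thio they gave -1.43 and 0.40, of which the first was called. The counts and medians given for the 44 genes use the brighter probe of both, and the direction of Idua and Gaa was not settled by these probes.

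All 7 genes of lipid handling were lower in Thio+IL-4c than in Thio, where 23.1% of all genes were lower. In Thio versus PBS, 4 of the 7 were higher and 1 lower, where 20.2% of all genes were higher and 24.2% lower. Within slide 1, Npc2 and Asah1 were also called higher in Thio. Npc1 and Npc2 pass cholesterol out of the lysosome. Npc1 was at -0.29, -0.07 and -0.24 on the PBS arrays, 0.58, 0.66, 0.50 and 0.70 on the IL-4c arrays, 2.46, 1.85 and 2.02 on the Thio arrays and 0.78, 0.98, 1.0 and 0.53 on the Thio+IL-4c arrays. The PBS arrays were the lowest, the Thio arrays the highest, and the groups given IL-4c overlapped in between. Npc1 rose by 2.31 ± 0.17 (SE, adjusted p = 7.1e-07) with thioglycollate, 4.96-fold, and by 0.81 ± 0.16 (SE, adjusted p = 0.0016) with IL-4c in resident cells, and was -1.29 ± 0.16 (SE, adjusted p = 4.4e-05) in Thio+IL-4c versus Thio. Npc2, the soluble partner, was 0.06 ± 0.16 (SE, adjusted p = 0.76) in Thio versus PBS, which did not pass, but was 0.51 and called within slide 1. With IL-4c, Npc2 was called at -0.48 in resident cells, which held in 18 of 25 alternatives, and at -0.78 in elicited cells. Galc, the galactosylceramidase, was at -0.72, -0.49 and -0.69 on the PBS arrays, -1.48, -1.54, -1.49 and -1.61 on the IL-4c arrays, 1.36, 1.14 and 1.29 on the Thio arrays and -2.14, -1.95, -1.94 and -2.76 on the Thio+IL-4c arrays. The groups did not overlap, and the gap between the Thio and Thio+IL-4c arrays exceeded 3 log2 units. Galc had the largest fall of the 44 genes in elicited cells, -3.46 ± 0.18 (SE, adjusted p = 5.3e-08) or 11-fold, and fell by a log2 difference of -0.90 ± 0.18 (SE, adjusted p = 0.0017) in resident cells. It rose by 1.90 ± 0.19 (SE, adjusted p = 9.1e-06) with thioglycollate. Lipa, the acid lipase that frees cholesterol from lipoproteins, rose by 1.92 ± 0.27 (SE, adjusted p = 1.6e-04) and was -1.87 ± 0.25 (SE, adjusted p = 9.5e-05) in Thio+IL-4c versus Thio. Its Thio arrays were uneven at 5.37, 4.57 and 4.21.

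Psap is the precursor of the saposins, small activators of sphingolipid hydrolases. It was at 5.83, 5.94 and 5.82 on the PBS arrays, 6.03, 5.70, 6.03 and 5.92 on the IL-4c arrays, 7.76, 7.30 and 7.19 on the Thio arrays and 7.14, 6.70, 7.07 and 6.51 on the Thio+IL-4c arrays. Both groups given thioglycollate stood above both groups without it. Psap rose by 1.55 ± 0.19 (SE, adjusted p = 5.4e-05) in Thio versus PBS and by 0.94 ± 0.17 (SE, adjusted p = 4.2e-04) in Thio+IL-4c versus IL-4c. Its fall in Thio+IL-4c versus Thio, -0.56 ± 0.18 (SE, adjusted p = 0.026), was -0.39 and not called within slide 2. Smpd1, the acid sphingomyelinase, was at 3.72 ± 0.13 in PBS, 2.84 ± 0.10 in IL-4c, 3.07 ± 0.27 in Thio and 1.89 ± 0.06 in Thio+IL-4c. It fell with IL-4c in resident (-0.89) and elicited cells (-1.18). Asah1, the acid ceramidase, was at 3.27 ± 0.11 in PBS, 3.13 ± 0.07 in IL-4c, 3.57 ± 0.39 in Thio and 2.04 ± 0.20 in Thio+IL-4c. It was called lower in Thio+IL-4c than in Thio (-1.53 ± 0.17 (SE, adjusted p = 1.7e-05)) and than in IL-4c (-1.09). The latter was -0.43 and not called with the slide as a block. Its other probe gave -0.86 and -0.29, the former called.

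Tpp1, a peptidase that removes tripeptides, was at 1.09, 1.07 and 1.12 on the PBS arrays, 1.65, 1.76, 1.61 and 2.04 on the IL-4c arrays, 3.24, 3.13 and 2.91 on the Thio arrays and 1.26, 1.30, 1.29 and 0.91 on the Thio+IL-4c arrays. All IL-4c arrays were above all PBS arrays, the Thio arrays were higher again, and the Thio+IL-4c arrays fell to 1.19 on average. Tpp1 rose by 0.67 ± 0.14 (SE, adjusted p = 0.0023) with IL-4c and by 2.0 ± 0.15 (SE, adjusted p = 7.4e-07) with thioglycollate, and was -1.90 ± 0.14 (SE, adjusted p = 6.8e-07) in Thio+IL-4c versus Thio. Ppt1, which takes fatty acids off modified proteins, was at 1.33, 1.38 and 1.14 on the PBS arrays, 1.04, 1.44, 1.0 and 1.15 on the IL-4c arrays, 1.17, 0.61 and 0.75 on the Thio arrays and -0.34, -0.53, -0.69 and -0.93 on the Thio+IL-4c arrays. Its Thio+IL-4c arrays were below all others, and the remaining groups overlapped with one another. Ppt1 differed by -1.46 ± 0.17 (SE, adjusted p = 3.7e-05) in Thio+IL-4c versus Thio and by -1.78 ± 0.16 (SE, adjusted p = 3.0e-06) in Thio+IL-4c versus IL-4c. Grn, the progranulin precursor, was at 6.21 ± 0.05 in PBS, 5.37 ± 0.12 in IL-4c, 6.38 ± 0.12 in Thio and 5.04 ± 0.39 in Thio+IL-4c. It fell with IL-4c in resident cells by a log2 difference of -0.84 ± 0.18 (SE, adjusted p = 0.0029) and in elicited cells by -1.34 ± 0.18 (SE, adjusted p = 8.6e-05).

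IL-4c was compared between the kinds of cell through comparisons that share no arrays. All 10 genes that rose with IL-4c in resident cells were called lower with it in elicited cells: Atp6v0c, Atp6v0d1, Atp6v1a, Atp6v1c1, Atp6v1d, Atp6v1h, Manba, Mitf, Npc1 and Tpp1. Of the 15 genes that fell in resident cells, 14 also fell in elicited cells, and Gla was not called there. Both counts stand beside the 40 of all 44 genes that were called lower in elicited cells. The resident rises of Atp6v0c and Atp6v1h kept their call in 19 of 25 alternatives each. For Mitf the other probe gave 0.19 in resident and 0.31 in elicited cells, neither of them called. A further 16 genes fell in elicited cells with no call in resident cells, by the brightest probe. Among these, the other probes of Asah1 and Gaa were called lower in resident cells, at -0.52 and -0.93. In elicited cells the other Gaa probe gave 0.40, which was not called. The interaction, which is the IL-4c difference in elicited cells minus that in resident cells, was called negative for 29 of the 44 genes and positive for 2, where 19.9% of all genes were negative and 12.7% positive. The 5 largest negative values were those of Atp6v1c1 (-2.84 ± 0.16 (SE, adjusted p = 4.9e-07)), Atp6v1a (-2.68 ± 0.19 (SE, adjusted p = 1.5e-06)), Tpp1 (-2.57 ± 0.19 (SE, adjusted p = 2.7e-06)), Galc (-2.56 ± 0.25 (SE, adjusted p = 1.6e-05)) and Naglu (-2.13 ± 0.21 (SE, adjusted p = 1.9e-05)). The positive calls were Cd63 and Gla (0.89 ± 0.19 (SE, adjusted p = 0.0034)), and that of Gla was lost with quantile normalization and in the authors' deposited table. The interaction of Tfeb, -0.65 ± 0.23 (SE, adjusted p = 0.047), was lost with the slide as a block and in 10 of the 14 fits without 1 array.

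**Figure D5:**
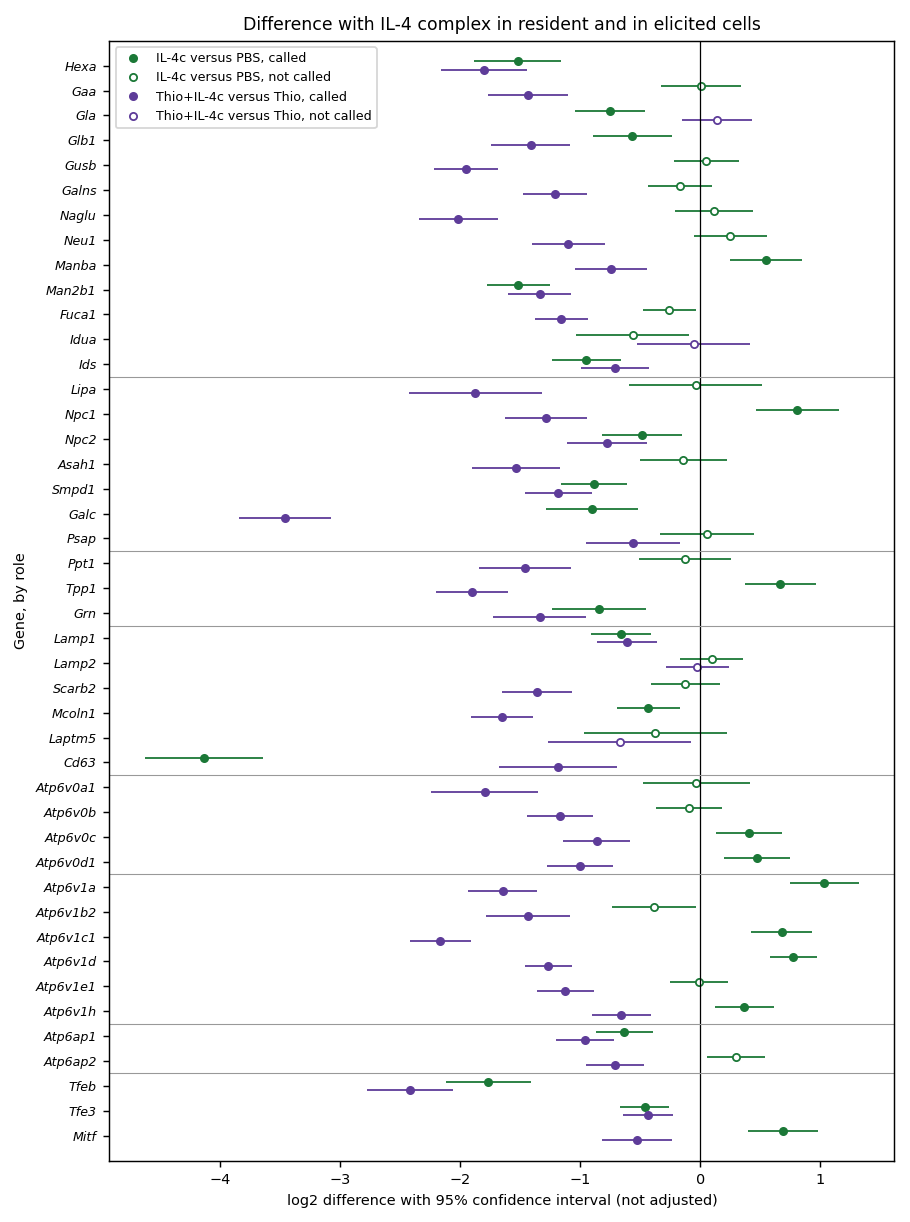
Each gene has its log2 difference (horizontal axis) with IL-4 complex in resident cells (green) and in elicited cells (purple), with an unadjusted 95% confidence interval; filled points were called. The purple points lie at or left of 0 for 43 of the 44 genes, while the green points lie on both sides.

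Thio+IL-4c was also set against IL-4c, so that both groups had received IL-4c. Of the 26 genes higher in Thio than in PBS, 7 were also higher in Thio+IL-4c than in IL-4c, 9 were lower and 10 were not called. Over all genes tested, 27.9% were higher and 42.2% lower in that comparison, so this split was not far from the background. The 7 were Cd63, Psap and the pump genes Atp6v0a1, Atp6v1b2, Atp6v1c1, Atp6v1h and Atp6ap2. No slide holds both groups. With the slide as a block these 7 stayed called, at 1.45 for Psap, 1.37 for Atp6v0a1 and 0.83 for Atp6v1h, and Npc1 (0.75) and Lipa (1.06) were called higher as well. Of the 9 that were lower, Naglu alone stayed called with the block. The other 8 were not called, among them Gusb (-0.27), Galc (-0.52), Tpp1 (-0.35) and Atp6v0b (-0.03). Of the 9 genes lower in Thio than in PBS, 8 were lower in Thio+IL-4c than in IL-4c too, of which 5 stayed called with the block. Ids (-0.19), Laptm5 and Lamp1 (0.10) were not called with it. Within slide 1, 6 of these 9 genes were not called in Thio versus PBS: Gla, Ids, Lamp1, Laptm5, Scarb2 and Smpd1. The lowest differences between Thio+IL-4c and IL-4c were those of Idua, Glb1, Scarb2, Ppt1, Laptm5 and Manba, from -2.04 to -1.45. With the slide as a block, Glb1, Scarb2, Ppt1, Idua and Manba stayed called lower and Laptm5 did not (-0.20). Idua was -1.13 in that fit, and its other probe gave -0.30, which was not called.

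Genes of the same pathway outside the 44 were counted from lists chosen with earlier results of these data known. Their counts stand beside 20.2% higher and 24.2% lower over all genes in Thio versus PBS, and 16.2% higher and 23.1% lower in Thio+IL-4c versus Thio. Of 21 other lysosomal hydrolases and activators, 13 were higher and 3 lower in Thio than in PBS, and 17 were lower and 0 higher in Thio+IL-4c than in Thio. Hyal1, a hyaluronidase, rose by 4.59 ± 0.14 (SE, adjusted p = 1.0e-09) and then differed by -3.75 ± 0.13 (SE, adjusted p = 3.9e-09). Acp5, the tartrate-resistant acid phosphatase, rose by 4.82 ± 0.29 (SE, adjusted p = 1.5e-07), and Hgsnat, an acetyltransferase of heparan sulfate breakdown, fell by a log2 difference of -3.88 ± 0.11 (SE, adjusted p = 6.1e-10). In IL-4c versus PBS, where 16.9% of all genes were higher and 15.3% lower, 11 of these 21 were lower and 2 higher, led by Pla2g15, a lysosomal phospholipase, at -2.01 ± 0.25 (SE, adjusted p = 5.3e-05). Of 24 other membrane proteins tested, 13 rose and 5 fell in Thio versus PBS, led by the peptide transporter gene Slc15a3 (3.31) and by Slc17a5, a sialic acid exporter (-2.76). In Thio+IL-4c versus Thio, 16 of them were lower, led by Clcn7, a chloride-proton exchanger (-2.25), and 2 were higher, Cd164 (1.33) and Lamp3 (0.82).

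Of 16 other pump subunits and assembly factors, 6 rose and 1 fell in Thio versus PBS. Between Thio+IL-4c and Thio, 9 of these 16 were lower and 1 higher. Atp6v0d2, an isoform of the d subunit known from osteoclasts, had the largest rise. In PBS no array had it well above background, and its level was at least 2048-fold higher in Thio than in PBS (adjusted p = 1.8e-08 by limma), a bound taken against the lowest signal well above background on each PBS array or the probe's own where that was higher. It differed by -1.72 ± 0.50 (SE, adjusted p = 0.017) in Thio+IL-4c versus Thio and by 8.39 ± 0.46 (SE, adjusted p = 6.4e-08) in Thio+IL-4c versus IL-4c. Its mean level in IL-4c was -5.08, near the floor of -5.97 used for PBS, so the size of the latter difference is uncertain. Those groups also lay on different slides. Tcirg1, the a3 subunit of osteoclasts and macrophages, rose by 1.64 ± 0.14 (SE, adjusted p = 2.7e-06) with thioglycollate. Of 16 genes for sorting of lysosomal enzymes, 11 rose and 1 fell in Thio versus PBS, and 13 were lower and 2 higher in Thio+IL-4c versus Thio. Igf2r, the large mannose 6-phosphate receptor, rose by 3.16 ± 0.11 (SE, adjusted p = 2.6e-09) with thioglycollate and by 2.0 ± 0.10 (SE, adjusted p = 8.0e-08) with IL-4c in resident cells. Sort1, the sorting receptor sortilin, was -2.63 ± 0.12 (SE, adjusted p = 2.0e-08) in Thio+IL-4c versus Thio. Of 25 genes that control the MiT/TFE factors, 11 rose and 3 fell in Thio versus PBS, and 13 were lower and 2 higher in Thio+IL-4c versus Thio. Fnip2, a partner of folliculin, rose by 3.07 and then differed by -2.19, and Tfec, the remaining family member, rose by 2.53, 1.78 and 1.0 in the IL-4c, Thio and Thio+IL-4c comparisons with their controls. Of 17 autophagy genes, 3 rose and 3 fell in Thio versus PBS (17.6% each, no more than over all genes), and 12 were lower and 1 higher in Thio+IL-4c versus Thio. Gabarapl1, which coats autophagosomes, was -1.91, 1.52 and -2.02 in the same 3 comparisons. Of 18 genes of late endosome and lysosome fusion, 8 rose and 0 fell in Thio versus PBS, and 13 were lower and 0 higher in Thio+IL-4c versus Thio.

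Markers of other cells moved with some of these differences. Over all genes, 20.2% were higher and 24.2% lower in Thio versus PBS, and 16.2% higher and 23.1% lower in Thio+IL-4c versus Thio. Of 8 mesothelial and stromal markers, 5 were higher and 0 lower in Thio than in PBS, and 0 were higher and 4 lower in Thio+IL-4c than in Thio. Their summed linear level, in units of the array's 75th percentile, was 1.66 to 1.87 in PBS, 1.06 to 1.18 in IL-4c, 3.04 to 4.88 in Thio and 2.27 to 2.56 in Thio+IL-4c. Wt1 was not well above background on any array of PBS, IL-4c or Thio+IL-4c, nor was Col1a1 on any PBS array. Of 6 neutrophil markers tested, 3 were higher and 1 lower in Thio than in PBS, and 1 was higher and 0 lower in Thio+IL-4c than in Thio, with sums of 3.65 to 4.40 in PBS, 2.77 to 3.05 in IL-4c, 7.90 to 16.1 in Thio and 11.7 to 17.6 in Thio+IL-4c. The 8 B cell markers summed to 9.60 to 18.01 in PBS and 2.70 to 3.96 over the other groups. Of 4 markers of monocyte-derived macrophages tested, 1 was higher and 2 lower in Thio than in PBS, and all 4 (Ccr2, Cd209a, Fn1 and Plac8) were higher in Thio+IL-4c than in Thio, with a median log2 difference of 2.39. They summed to 196 to 292 in PBS, 113 to 132 on 3 of the 4 IL-4c arrays, 45.6 to 59.6 in Thio and 146 to 168 in Thio+IL-4c, where the spot of Fn1 was left out on the remaining IL-4c array as an outlier. The markers of T and NK cells, of eosinophils and of mast cells and basophils each summed to between 1.50 and 8.04 on every array. The 7 macrophage markers summed to 386 to 450.5 in PBS, 238 to 247 in IL-4c, 140 to 186 in Thio and 120 to 141 in Thio+IL-4c. The 6 markers of resident peritoneal macrophages summed to 521 to 608 in PBS, 175 to 189 in IL-4c and 5.48 to 9.08 in the groups given thioglycollate. The part of other cells in the lysosomal differences was not tested.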

How the data were processed

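The authors deposited, per array, single-dye (Cy3) spot intensities extracted with Agilent Feature Extraction 11.0.1.1 per the file headers (11.5 per the submitters' processing notes), as an intensity that was background-subtracted. They also deposited a log2 table, whose column median is 9.23 on every array and whose slope on the log2 median signal is 0.985 to 0.993. The sources used here do not give its background correction. Of 62976 spots per array, 3671 control spots and 113 to 165 spots marked as outliers were left out. Probes were named by RefSeq accession (GRCm38.p6), 27235 of 55681 with 1 symbol. Each log2 processed signal was set relative to its array's 75th percentile. Probes had to exceed the scanner's background threshold on 3 or more arrays, and the brightest probe stood for its gene. Of the 44 genes, 34 had 1 probe, and the probes of the other 10 went opposite ways in 13 of 50 pairs of probe and comparison, 3 with both called. limma 3.58.1 in R 4.3.3 fitted 1 mean per group over all 14 arrays, tested two-sided with Benjamini-Hochberg adjustment over 20343 genes, and the fit was tested on simulated data. Alternatives covered scaling, background (normexp with offset 50 on the median signal, since the files hold no mean signal), probe choice, filters, slide, array weights, replicate block and each array left out. The number of arrays limits the precision. The members, lists, tests and naming rule (extremes by role and comparison, with Lamp1, Lamp2, Tfeb, Tfe3 and Mitf in any case) were chosen with earlier results of these data known.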

Additional observations from a re-analysis of the deposited data

Results flagged for a closer look

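The difference with IL-4c in elicited cells differed from that in resident cells for 31 of the 44 genes, by the interaction term of the limma fit, given here as the log2 difference in elicited minus that in resident cells. It was negative for the pump genes Atp6v1c1 (-2.84), Atp6v1a (-2.68), Atp6v1d (-2.04), Atp6v0a1 (-1.76), Atp6v0d1 (-1.47), Atp6v0c (-1.27), Atp6v1e1 (-1.11), Atp6v0b (-1.08), Atp6v1b2 (-1.06), Atp6v1h (-1.03) and Atp6ap2 (-1.01). Negative glycan hydrolases were Naglu (-2.13), Gusb (-2.0), Gaa (-1.44), Neu1 (-1.35), Manba (-1.29), Galns (-1.04), Fuca1 (-0.90) and Glb1 (-0.84). Negative genes of lipid and protein turnover were Tpp1 (-2.57), Galc (-2.56), Npc1 (-2.10), Lipa (-1.84), Asah1 (-1.39) and Ppt1 (-1.34). Negative membrane proteins and factors were Scarb2 (-1.24), Mcoln1 (-1.22), Mitf (-1.22) and Tfeb (-0.65). It was positive for Cd63 (2.95) and Gla (0.89). The values of Gaa, Mitf and Asah1 hold for the brightest probe, and their other probes gave 1.33, 0.13 and -0.34.

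Single arrays stood far from the rest of their group in 8 of 88 tests (44 genes in the 2 groups of 4 arrays), where chance gives about 1 in 20 for a single test. The genes share the same arrays, so the tests are not independent and that rate gives no expected count. The measure is the gap to the nearest array over the range of the group. On Thio+IL-4c replicate 4 it was 0.907 for Gaa, 0.849 for Gusb, 0.862 for Naglu, 0.909 for Tpp1 and 0.864 for Atp6v0a1, each at the low end. It was 0.839 for Lamp2 on IL-4c replicate 2, 0.918 for Atp6v0b on Thio+IL-4c replicate 3 and 0.881 for Mitf on Thio+IL-4c replicate 1. Without Thio+IL-4c replicate 4, 39 of the 44 genes were lower in Thio+IL-4c than in Thio.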

How the results depend on the processing

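The counts of higher and lower genes kept within 1.5 times of those reported under the alternatives tried, with these exceptions. In IL-4c versus PBS, 9 were lower in the authors' deposited log2 table. In Thio versus PBS, 3 were lower with the slide as a block and within slide 1. In Thio+IL-4c versus IL-4c, 3 were higher in the authors' table, and 9 were lower with the slide as a block. In Thio+IL-4c versus Thio, 1 gene, Gla, was higher with the slide as a block, with array weights and without Thio replicate 1. In the interaction, 1 was positive with quantile normalization, with normexp and in the authors' table, and 4 with array weights. Leaving out 1 array gave 7 to 12 higher and 13 to 18 lower in IL-4c versus PBS, 25 to 26 and 8 to 11 in Thio versus PBS, 0 to 1 and 39 to 41 in Thio+IL-4c versus Thio, 7 to 9 and 21 to 23 in Thio+IL-4c versus IL-4c, and 2 to 3 and 28 to 29 in the interaction. Signs reversed for Gla (0.11 and 0.10) and Lamp1 (0.45 and 0.45) in Thio versus PBS, for Tfe3 in Thio+IL-4c versus IL-4c (0.30 and 0.32) and for Lamp1 in the interaction (-0.64 and -0.66), each with quantile normalization and with normexp. They also reversed with the mean of probes for Gaa in IL-4c versus PBS (-0.46) and Thio+IL-4c versus IL-4c (0.054) and for Mitf in the latter (0.70), and with the slide block for Lamp1 there (0.10). The causes were not tested. Calls held under all alternatives for 16 of 25 genes in IL-4c versus PBS, 28 of 35 in Thio versus PBS, 38 of 40 in Thio+IL-4c versus Thio, 11 of 29 in Thio+IL-4c versus IL-4c and 28 of 31 in the interaction. Whether equal replicate numbers pair the samples is not stated. Same-numbered arrays deviated from their group means with a median correlation of -0.005 over 19 pairs (-0.45 to 0.37), which cannot settle it. With a replicate block the counts were 8 and 14, 25 and 8, 0 and 39, 7 and 21, and 2 and 29 in that order. No spot was saturated and all 44 genes were well above background on all arrays. The fit within a slide has 1 or 2 Thio arrays, so the lone Thio array of slide 1 is assumed to vary like the other groups.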
